A study of Mus musculus with 41 samples.

Results

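Imprinted genes are expressed mainly from the allele inherited from 1 parent, and many of them control fetal growth. The 10 imprinted growth genes described here are the noncoding RNAs H19 and Meg3, the ligands Igf2 and Dlk1, the receptor Igf2r, the signaling adaptor Grb10, the zinc finger genes Plagl1 and Peg3, the hydrolase-like gene Mest, and the retrotransposon-derived gene Peg10. They were chosen by name, all 10 were found among the 27197 genes of the count table, and 9 of them had enough reads in the cell lines to be tested. Messenger RNA was measured by RNA-seq in 6 mouse mesothelioma cell lines and 9 mouse mesothelioma tumors, and DNA copy number in 14 tumors. The 3 BNC lines (JB81, JB91, and JB97) have the genotype Bap1-/-;Nf2-/-;Cdkn2ab-/-, and the 3 NC lines (JB84, JB87, and JB93) the genotype Nf2-/-;Cdkn2ab-/-. Loss of Nf2 and Cdkn2ab is therefore shared by both groups, and Bap1, which encodes a deubiquitinase of chromatin, is the gene in which they differ. Tumors were started in young adult mice of mixed background, treated with cyclosporine A around the injection, by adenovirus injected into the chest with Cre under the ubiquitous CMV promoter, so that recombination was not restricted to mesothelial cells. Lines were grown out of pieces of primary tumors in medium that held insulin and EGF. BNC mice were killed within weeks of the injection and most NC mice later, so the groups differ in age, and the mouse and the age from which each line came are not given in the sources used here. Tumors of both genotypes were sequenced, but the column heads of the tumor libraries do not give the genotype, so the 9 tumors are described together and are not compared by genotype.

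In an imprinted domain, a control region methylated on 1 parental allele directs which genes are expressed from which chromosome. At H19 and Igf2, the protein CTCF binds the unmethylated maternal copy and keeps enhancers from Igf2, so that H19 is made from the maternal and Igf2 from the paternal chromosome. Several products meet in 1 pathway. IGF2 activates the IGF1 and insulin receptors, IGF2R takes IGF2 to the lysosome, and GRB10 binds the activated receptors and dampens them. The deposited counts do not separate alleles, so a level here is the sum of both.

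The sequences below show what is distinctive at the loci on which the results turn. H19, annotated as a lincRNA, occupies positions 142575529 to 142578143 of chromosome 7 (minus strand, GRCm38, the build of all gene positions given). Within 5000 bases upstream of its start, the letters CGNGGNGGC, the core of a CTCF site, matched 3 times on the strand of H19 and 0 times on the other strand. The matches are shown 5′ to 3′ with the matched letters in capitals, and the first capital letters lie 3901, 2631, and 2176 bases upstream of the gene. Of 27792 coding and lincRNA genes, 28.2% had a match on either strand in a window of this length, and 2.27% had 3 or more. A match is a description of the letters and shows no binding.
H19 upstream site 1, chr7:142582028-142582053, minus strand: gagttgccgCGTGGTGGCagcaaaat
H19 upstream site 2, chr7:142580758-142580783, minus strand: atgctaccgCGCGGTGGCagcatact
H19 upstream site 3, chr7:142580303-142580328, minus strand: acgatgccgCGTGGTGGCagtacaat

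H19, Igf2, Meg3, and Mest also contain microRNA genes, and their mature sequences in RefSeq are shown because the same transcription units carry them. The seed, bases 2 to 8, is in capitals. No seed was shared by the 4 arms shown. The mature microRNAs were not measured in these poly-A libraries.
mmu-miR-675-5p in H19: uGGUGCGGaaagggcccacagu
mmu-miR-483-5p in Igf2: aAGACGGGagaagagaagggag
mmu-miR-770-5p in Meg3: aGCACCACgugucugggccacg
mmu-miR-335-5p in Mest: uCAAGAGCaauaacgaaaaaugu

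Promoters are printed for Plagl1 and Meg3, which were near 0 in NC lines, and Peg3, which was the member lower in BNC lines. Each runs from 250 bases before to 50 bases after the start in RefSeq on GRCm38.p6, 5′ to 3′ along the gene, with every CG in capitals, since CG is where DNA methylation sits. Plagl1 had 26 CGs, and 16.9% of the 32851 promoters in the RefSeq table had as many. Meg3 and Peg3 had 13 each, which 37.9% of promoters reached, and the median promoter had 7. RefSeq also lists a further Meg3 promoter, not printed, that had 1 CG, which 94.6% of promoters reached. Grb10 had the most among the members in the table, 45 CGs in 1 of its promoters, reached by 1.93% of all promoters. DNA methylation was not measured.
Plagl1, chr10:13090582-13090881, plus strand: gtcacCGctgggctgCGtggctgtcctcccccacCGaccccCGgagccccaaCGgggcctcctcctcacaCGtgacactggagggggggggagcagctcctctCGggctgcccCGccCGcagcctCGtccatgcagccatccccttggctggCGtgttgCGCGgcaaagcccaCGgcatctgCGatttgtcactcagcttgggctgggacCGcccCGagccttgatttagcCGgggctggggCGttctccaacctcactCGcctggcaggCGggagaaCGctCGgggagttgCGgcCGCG
Meg3, chr12:109540746-109541045, plus strand: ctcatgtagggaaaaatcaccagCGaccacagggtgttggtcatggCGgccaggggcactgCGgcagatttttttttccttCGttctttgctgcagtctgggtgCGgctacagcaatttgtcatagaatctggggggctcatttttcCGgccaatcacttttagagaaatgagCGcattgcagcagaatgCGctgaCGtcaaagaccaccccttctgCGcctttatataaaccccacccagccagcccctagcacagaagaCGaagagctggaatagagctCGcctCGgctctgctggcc
Peg3, chr7:6730370-6730669, minus strand: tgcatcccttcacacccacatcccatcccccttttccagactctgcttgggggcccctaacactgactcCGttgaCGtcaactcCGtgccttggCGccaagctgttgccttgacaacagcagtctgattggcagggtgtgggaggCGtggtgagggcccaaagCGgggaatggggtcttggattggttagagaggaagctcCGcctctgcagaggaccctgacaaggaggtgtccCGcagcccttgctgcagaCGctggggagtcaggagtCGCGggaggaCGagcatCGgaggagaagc

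The lines of a group were not equally independent. JB81 and JB91 were nearly identical, with a biological coefficient of variation of 0.0386 between them, and so were JB84 and JB93, with 0.0578. Every other pair within a group was between 0.457 and 0.496, and JB97 was nearer to the NC line JB87 (0.402) than to the other BNC lines. Counts of genes called and the tested members are therefore also given with each close pair summed, which leaves 2 against 2. For single genes outside the members, the adjusted p-values printed treat all 6 lines as separate. Whether lines come from separate mice is not known, so p-values measure only the spread between these cultures. Total counts were between 12377675 and 23936922 in the lines and between 8158740 and 21851974 in the tumors, and 3 counts, taken as the smallest level the depth can show, were 0.133 to 0.247 CPM (counts scaled by library size) in the lines. Intervals and this floor cover counting error only. Bap1 was at 43.2, 44.1, and 38.0 CPM in JB81, JB91, and JB97 and at 61.5, 60.6, and 64.3 CPM in JB84, JB87, and JB93, and its reads include exons outside the deletion. Nf2 did not separate the groups (88.3 to 123 CPM), and Cdkn2a was at most 0.567 CPM in every line. The mesothelial marker Msln was at 0.221 and 0.442 CPM in JB81 and JB91, 230 CPM in JB97, and 901 to 2151 CPM in NC lines, and Krt8, Krt18, Krt19, Upk3b, and Pdpn were likewise near 0 in JB81 and JB91. Wt1 was at 131 to 132 CPM in those same lines, so these 2 cultures carried 1 of the 8 mesothelial markers at a level at least that of the NC lines. The sum of the 8 was 126 to 665 CPM in BNC and 2154 to 3014 CPM in NC lines. This difference moves with the groups, and its part in the results below was not tested. Of the endothelial markers, Pecam1 and Cdh5 were at most 0.258 CPM in every line, but Kdr was at 0.177, 0.0442, and 7.26 CPM in JB81, JB91, and JB97 and at 51.7 to 61.6 CPM in NC lines. The fibroblast marker Col3a1 was at 87.4, 90.8, and 566 CPM in BNC and at 922 to 973 CPM in NC lines. Col1a1 went the other way, with 5510 ± 1684 CPM in BNC and 1822 ± 1838 CPM in NC lines (SD, n = 3), and its groups overlapped. Of the 3 fibroblast markers tested, 2 had a higher and 1 a lower fitted level in BNC lines. The sums of the 5 fibroblast markers overlapped between the groups. Acta1 of the muscle markers was at 0.886 to 4.33 CPM in BNC and 0.271 to 0.659 CPM in NC lines. The part of these differences in the results was not tested either. Ptprc and Cd3e of the leukocyte, Hbb-bs of the erythroid, and Plin1 of the adipocyte markers were at or near 0 in all 6 lines. The leukocyte marker Csf1r had 2.57 ± 1.60 CPM in BNC and 0.330 ± 0.571 CPM in NC lines (SD, n = 3), which overlapped. Cd68 went the other way, with 2.90 ± 0.403 CPM in BNC and 3.77 ± 0.537 CPM in NC lines (SD, n = 3), without overlap. The leukocyte marker sums overlapped.

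In the lines, 8 of the 9 tested members had a higher fitted level in BNC than in NC lines and Peg3 had a lower one. The groups did not overlap for 8 of them, against 41.5% of all 12376 genes tested, and Mest was the exception. By edgeR's quasi-likelihood test at a Benjamini-Hochberg adjusted p under 0.01 and more than 2-fold change, 1 member, Meg3, was called, against 1.1% of all genes (136). At an adjusted p under 0.05, 6 members passed, 5 higher (H19, Igf2, Igf2r, Meg3, and Plagl1) and 1 lower (Peg3), against 11.6% of all genes. The median log2 fold change of the 9 was 2.54, and that of all genes tested was -0.0023. H19 and Meg3, and among the genes described below Rian and Stc1, passed the filter on low counts through the BNC lines only, and Notch4 through the NC lines only, so a difference was built into their passing, and their p-values and these counts are a description. Plagl1 reached the level of the filter, 0.51 CPM by library size alone, in 3 BNC and 1 NC lines. Dio3 and Hey1, described below, also had NC values near or below that level, so the p-values of these genes carry the same limit. When the close pairs were summed, edgeR called 0 members and 0 genes in all (6 members had an unadjusted p under 0.05, against 11.7% of all genes), and DESeq2 called 4, H19, Meg3, Peg3, and Plagl1, against 4.43% of all genes. With the 6 lines kept apart, 35.6% of all genes had an unadjusted p under 0.05, and DESeq2 called 15.1% of all genes.

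**Figure D1:**
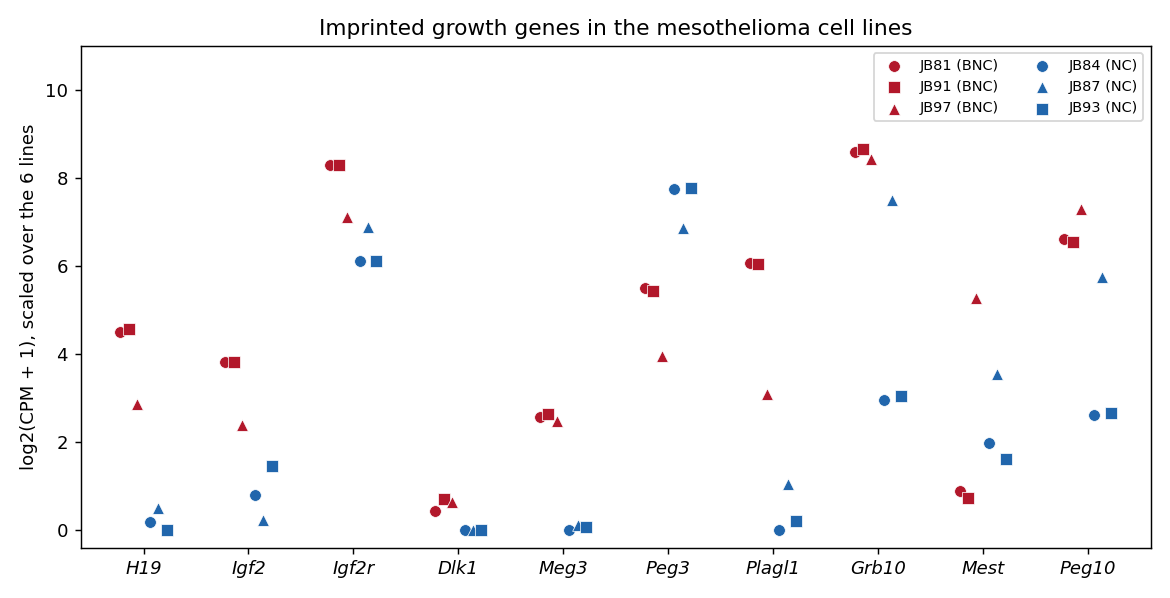
Level of each imprinted growth gene in each cell line, as log2(CPM + 1) with TMM scaling over the 6 lines; red points are BNC lines, blue points NC lines, and the shape gives the line. The red and blue points do not overlap except for Mest, and JB97 lies further below JB81 and JB91 for H19, Igf2, Igf2r, Peg3, and Plagl1 than for Meg3 and Grb10.

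Meg3 is a noncoding RNA made from the maternal chromosome and lies on chromosome 12 from 109541001 to 109571726. It was at 4.92 CPM in JB81, 5.22 in JB91, and 4.53 in JB97. In the NC lines it was at 0 CPM in JB84, 0.0824 in JB87, and 0.0482 in JB93. The 3 BNC lines were thus within a narrow range, JB97 included, and the NC lines together had 2 reads against 317. The ratio of pooled counts, scaled by library, was 117, with an exact 95% counting interval from 32.1 to 968. The log2 fold change was 6.65 ± 0.63 (SE, edgeR adjusted p = 0.0072), and the adjusted p was 0.253 with the close pairs summed and 0.136 with the line number of the study's gene list as a replicate block. Meg3 was called when JB97 or JB87 was left out, and missed the threshold when any other line was left out, with adjusted p-values from 0.0473 to 0.0661 (edgeR). The column heads of the lines carry 2 number prefixes, called runs here, and what the prefixes stand for is not stated. Within the first run (JB81, JB84, and JB87) the difference in mean log2(CPM + 1) was 2.51. It was 2.48 within the second (JB91, JB97, and JB93), against 2.496 over all lines. With the run as a covariate, Meg3 had an adjusted p of 0.036 (edgeR) and was no longer called. Of its exon bases, 6.79% overlap the antisense gene Gm26906, and the strand setting of the counting is not stated.

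The other genes of the Meg3 domain followed the same division of the lines. Rian, the noncoding RNA downstream of Meg3 that hosts small nucleolar RNAs, was at 9.57, 8.05, and 13.2 CPM in JB81, JB91, and JB97. The NC lines had 0.0678, 0, and 0.0965 CPM in the order JB84, JB87, and JB93. The log2 fold change of Rian was 7.24 ± 0.64 (SE, edgeR adjusted p = 0.0060), and, as it was tested through the BNC lines only, this is a description. Its NC total was 3 reads, which gave a ratio of 161 with an exact 95% counting interval from 54.7 to 781. Mirg, which hosts microRNAs, was detected in each BNC line (0.133 to 0.354 CPM) with 0 reads in NC lines, at least 3.68-fold higher over the groups, and had too few reads to be tested. Dio3, a paternally expressed gene for an enzyme that inactivates thyroid hormone, was at 11.4, 11.2, and 9.94 CPM in BNC lines and at 0, 0.577, and 0 CPM in NC lines, with a log2 fold change of 5.97 ± 1.27 (SE, edgeR adjusted p = 0.035). Dlk1, a membrane protein related to the Notch ligands and paternally expressed, was at 0.354, 0.619, and 0.567 CPM in BNC lines and had 0 reads in each NC line. This puts it at least 8.10-fold higher over the group, with 33 reads in all, and it was too low to be tested. Rtl1, the paternally expressed retrotransposon-derived gene of the domain, was below the floor in all 6 lines. Maternally and paternally expressed genes of the domain were therefore both seen in BNC lines and both at or near 0 in NC lines.

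**Figure D2:**
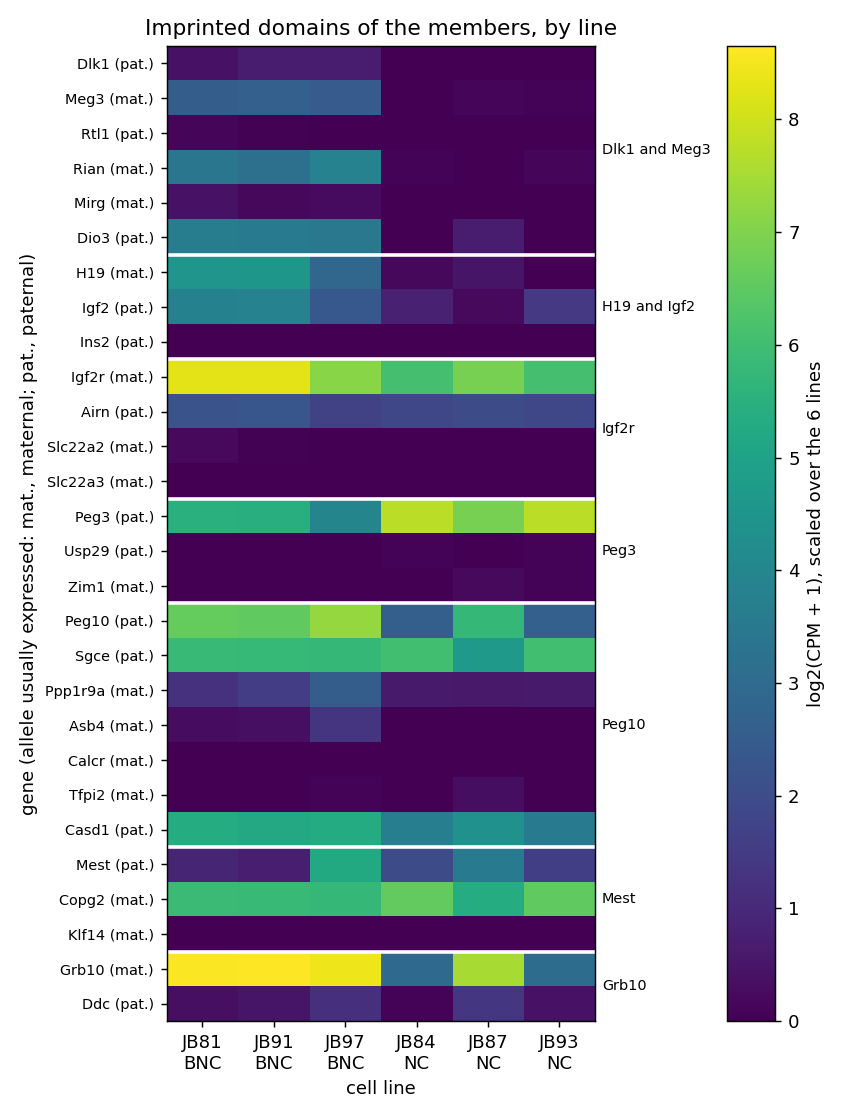
Level of the genes of 7 imprinted domains in each line, as log2(CPM + 1), with BNC lines in the left and NC lines in the right columns; each row is a gene with the allele that is usually expressed. In the Dlk1 and Meg3 domain, Meg3, Rian, and Dio3 are detected in the 3 BNC lines and near 0 in the NC lines, while Airn, Sgce, and Copg2 overlap between the groups.

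H19, a noncoding RNA of the maternal chromosome, was at 21.6, 22.9, and 6.23 CPM in JB81, JB91, and JB97. It was at 0.136 CPM in JB84, 0.412 in JB87, and 0 in JB93, which are 2, 5, and 0 reads, so JB87 was the NC line above the floor of 3 reads. BNC and NC lines differed by 6.65 ± 1.11 (SE, edgeR adjusted p = 0.021) on the log2 scale, and the adjusted p was 0.298 with the close pairs summed. Its neighbor Igf2, the paternally expressed fetal growth factor (chromosome 7, 142650766 to 142666816, minus strand), was at 13.1, 13.2, and 4.22 CPM in BNC lines and at 0.746, 0.165, and 1.74 CPM in NC lines. Igf2 had a log2 fold change of 3.47 ± 0.86 (SE, edgeR adjusted p = 0.048), and adjusted p = 0.389 with the close pairs summed. In both genes no NC line reached a BNC line, and JB97 was at 0.280 of the mean of JB81 and JB91 for H19 and at 0.321 of it for Igf2. Per exon length, H19 over Igf2 was 3.84, 4.04, and 3.43 in JB81, JB91, and JB97, so both genes were lower together in JB97. In NC lines the ratio rests on at most 5 reads of H19. Ins2, the third gene of the domain, had 0 reads in all lines. Of the exon bases of Igf2, 62.8% are shared with the read-through gene Gm49394 on the same strand, for which the table has no row.

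Igf2r, whose product removes IGF2 from the cell surface, occupies 12682406 to 12769664 of chromosome 17 (minus strand). It was at 315, 311, and 137 CPM in JB81, JB91, and JB97 and at 68.0, 117, and 67.8 CPM in JB84, JB87, and JB93. The groups did not overlap, but JB97 was only 1.17 times JB87. A log2 fold change of 1.59 ± 0.40 (SE, edgeR adjusted p = 0.0498) was at the edge of the looser threshold, and the adjusted p was 0.461 with the close pairs summed (edgeR). Airn, the paternally expressed noncoding RNA that overlaps Igf2r on the other strand and silences it, was at 2.27 to 4.02 CPM in BNC and 2.56 to 3.05 CPM in NC lines, which overlapped (log2 fold change 0.29 ± 0.33 SE, edgeR adjusted p = 0.549). Slc22a2 and Slc22a3, the other genes of the domain, had at most 0.177 CPM.

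Grb10, the adaptor that restrains insulin and IGF1 receptors (chromosome 11, 11930508 to 12038683, minus strand), was at 386, 401, and 343 CPM in BNC lines. In NC lines it was at 6.79 CPM in JB84 and 7.24 in JB93 but at 181 CPM in JB87. The BNC lines were thus close to each other, JB97 included, and JB87 stood between the groups at 25.8 times the mean of the other NC lines. The log2 fold change was 2.54 ± 1.32 (SE, edgeR adjusted p = 0.217), and without JB87 it was 5.77 (adjusted p = 0.00024, edgeR). With the close pairs summed, Grb10 had an adjusted p of 0.646 (edgeR). Peg10, a gag-like gene required for the placenta (chromosome 6, 4747306 to 4760517), also had JB87 between the other NC lines and the BNC lines. It was at 97.3, 92.6, and 156 CPM in BNC lines and at 5.09, 52.7, and 5.35 CPM in JB84, JB87, and JB93. Peg10 had a log2 fold change of 2.46 ± 0.99 (SE, edgeR adjusted p = 0.136), and 4.48 without JB87 (adjusted p = 0.0012, edgeR). Its adjusted p was 0.541 when the close pairs were summed (edgeR). Sgce, which starts beside Peg10 on the opposite strand and shares its control region, was at 53.5 to 56.4 CPM in BNC lines and at 63.9, 24.2, and 64.3 CPM in JB84, JB87, and JB93. Sgce did not follow Peg10, and its groups overlapped (log2 fold change 0.10 ± 0.37 SE, edgeR adjusted p = 0.857). Casd1 and Ppp1r9a, further genes of the Peg10 domain, had log2 fold changes of 1.43 ± 0.26 (SE, edgeR adjusted p = 0.025) and 2.38 ± 0.58 (SE, edgeR adjusted p = 0.046). Asb4 was detected in BNC lines (0.221 to 1.44 CPM) with 0 reads in NC lines, and Calcr had 0 reads in every line.

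Plagl1, a paternally expressed zinc finger factor known to arrest cell growth (chromosome 10, 13060504 to 13131694), followed the division of the lines too. It was at 65.8, 64.7, and 7.52 CPM in JB81, JB91, and JB97 and at 0, 1.07, and 0.145 CPM in JB84, JB87, and JB93. The groups did not overlap, but JB97 was at 0.115 of the mean of JB81 and JB91 and at 7.02 times JB87. BNC and NC lines differed by 6.95 ± 1.41 (SE, edgeR adjusted p = 0.032) on the log2 scale, with adjusted p = 0.318 when the close pairs were summed. Peg3, a large zinc finger gene expressed from the paternal allele (chromosome 7, 6703892 to 6730431, minus strand), was the member that was lower in BNC lines. It was at 44.1, 42.4, and 14.4 CPM in JB81, JB91, and JB97 and at 213, 116, and 216 CPM in JB84, JB87, and JB93. JB97 was the lowest line and JB84 and JB93 the highest. The log2 fold change was -2.43 ± 0.50 (SE, edgeR adjusted p = 0.032), and adjusted p = 0.311 when the close pairs were summed. Usp29 and Zim1, the neighbors of Peg3, had at most 0.165 CPM in any line.

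Mest, a paternally expressed gene of the hydrolase fold (chromosome 6, 30723547 to 30748465), divided the BNC lines. It was at 0.841 and 0.663 CPM in JB81 and JB91 and at 37.6 CPM in JB97. The NC lines JB84, JB87, and JB93 had 2.92, 10.6, and 2.07 CPM. JB97 was the highest of the 6 lines and JB81 and JB91 the lowest, with JB97 at 50.0 times their mean. The log2 fold change of 1.33 ± 1.60 (SE, edgeR adjusted p = 0.568) therefore rests on JB97, and without JB97 it was -2.76 (adjusted p = 0.085, edgeR). Summing the close pairs gave an adjusted p of 0.777 (edgeR). Within the first run the difference in mean log2(CPM + 1) was -1.87 and within the second, where JB97 stands, it was 1.38. Copg2, whose exons overlap 23.1% of those of Mest on the other strand, was at 39.6 to 95.2 CPM and did not separate the groups. The paternally expressed gene Ndn, named after its values were seen, behaved like Mest in the BNC lines, at 0 CPM in JB81 and JB91 and 23.8 CPM in JB97.

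**Figure D3:**
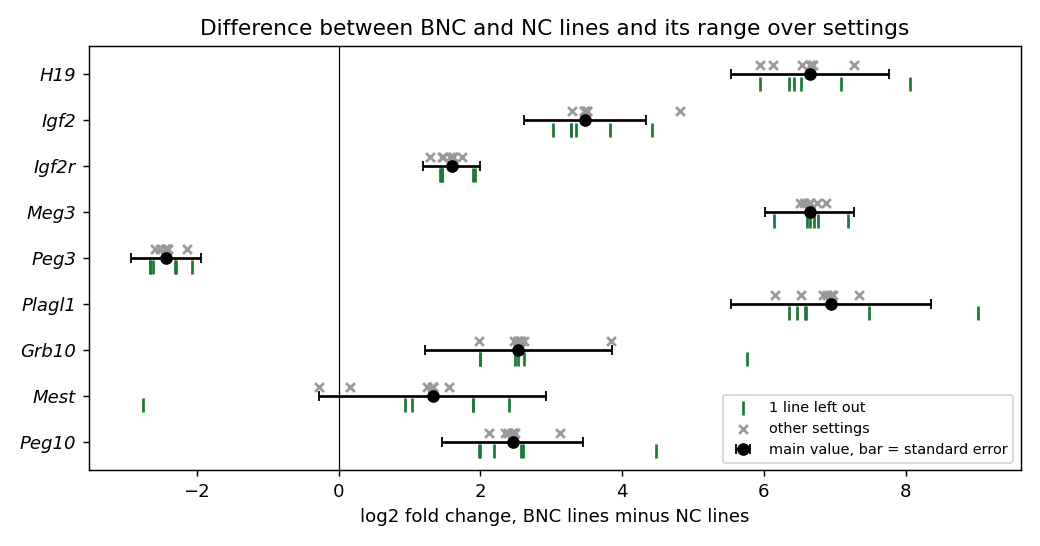
Log2 fold change of the 9 tested members, BNC minus NC lines, with its standard error (black), the values when 1 line is left out (green), and the values under the other settings (gray crosses). All values lie on 1 side of 0 except those of Mest, and leaving out JB87 moves Grb10 from 2.54 to 5.77.

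Within a run, the direction of each member other than Mest was the same as over all lines. The differences in mean log2(CPM + 1) within the first and the second run were 4.16 and 3.72 for H19, 3.31 and 1.65 for Igf2, 1.81 and 1.59 for Igf2r, 5.54 and 4.37 for Plagl1, 3.36 and 5.50 for Grb10, 2.44 and 4.25 for Peg10, and -1.81 and -3.07 for Peg3. The pooled differences on this scale were 3.75, 2.52, 1.53, 4.65, 4.05, 3.14, and -2.495. Each run holds 3 lines, and these values are given as a description. In the fit with the run as a covariate, edgeR called 0 members, and the adjusted p was 0.053 for H19, 0.067 for Plagl1, 0.076 for Peg3, 0.081 for Igf2r, and 0.093 for Igf2. Each close pair has 1 line in each run. The comparison of JB97 with JB87, the lines outside the close pairs, had the same direction, with ratios of 15.1 for H19, 2.95 for Peg10, 1.90 for Grb10, and 0.125 for Peg3, and it is 1 library against 1 and has no test. Meg3 had 1 read and Igf2 2 reads in JB87, below the floor, so no ratio is given for them.

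Other imprinted genes were listed as a setting for the members. Of 47 further imprinted genes listed, 45 were in the table and 23 were tested, 14 with higher and 9 with lower values in BNC lines. By edgeR, 1 was called higher (Rian, tested through the BNC lines only) and 0 lower (9 of the 23 had an unadjusted p under 0.05, and DESeq2 called 4 higher and 1 lower, against the shares of all genes given above). At an adjusted p under 0.05, 4 were higher and 1 lower, and the median log2 fold change was 0.24. Besides Rian, the gene with the smallest p was Inpp5f, which encodes a phosphoinositide phosphatase, with 22.2 ± 0.613 CPM in BNC and 50.0 ± 6.90 CPM in NC lines (SD, n = 3; log2 fold change -1.17 ± 0.16 SE, edgeR adjusted p = 0.013). Over the 57 imprinted genes listed, 15 tested genes were listed as usually expressed from the maternal allele, 12 of them higher in BNC lines. Another 16 were listed under the paternal allele, 10 of them higher. Of all 12376 genes tested, 6167 were higher. Which allele is used in these lines was not measured.

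Genes of IGF signaling were listed because they act around Igf2, Igf2r, and Grb10. Of 20 genes, 18 were tested, 13 with higher and 5 with lower values in BNC lines, and the median log2 fold change was 1.64. edgeR called 0 of them (10 had an unadjusted p under 0.05, against 35.6% of all genes, and DESeq2 called 7 higher and 1 lower, against 15.1%), and 6 passed an adjusted p under 0.05, all higher. Stc1, a stanniocalcin that blocks the protease PAPP-A, had 4.97 ± 2.74 CPM in BNC and 0.0387 ± 0.0349 CPM in NC lines (SD, n = 3; log2 fold change 6.69 ± 0.89 SE, edgeR adjusted p = 0.013), and passed the filter through the BNC lines only. Grb14, the paralog of Grb10, had 16.2 ± 7.24 CPM in BNC and 1.93 ± 0.919 CPM in NC lines (SD, n = 3; log2 fold change 3.08 ± 0.50 SE, edgeR adjusted p = 0.020). Pappa2, a protease of IGF binding proteins named after its values were seen, was at 1039 and 1073 CPM in JB81 and JB91 but 52.6 CPM in JB97, and at 0.407 to 3.13 CPM in NC lines. Igf1r, the receptor on which IGF2 acts, was at 128 to 150 CPM in BNC and 86.2 to 108 CPM in NC lines (log2 fold change 0.54 ± 0.15 SE, edgeR adjusted p = 0.064) and was also named after its values were seen.

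Notch genes were listed as partners of Dlk1. Of 13 genes 10 were tested, with a median log2 fold change of 0.41, and edgeR called 0 (3 had an unadjusted p under 0.05, and DESeq2 called 1 higher). Hey1, a transcriptional target of Notch, was at 19.4, 18.5, and 1.29 CPM in JB81, JB91, and JB97 and at most 0.659 CPM in NC lines (log2 fold change 5.76 ± 1.43 SE, edgeR adjusted p = 0.048), and Notch4 had 0.302 ± 0.140 CPM in BNC and 1.05 ± 0.590 CPM in NC lines (SD, n = 3; adjusted p = 0.090, edgeR). Of 18 genes that maintain imprints or modify chromatin, 15 were tested, the median log2 fold change was 0.21, and edgeR called 0 (6 had an unadjusted p under 0.05, and DESeq2 called 2 higher). Zfp57, the zinc finger protein that guards methylated control regions, had 30.2 ± 1.26 CPM in BNC and 60.05 ± 13.97 CPM in NC lines (SD, n = 3; log2 fold change -0.99 ± 0.21 SE, edgeR adjusted p = 0.033). Ezh2, the methyltransferase of H3K27, had 153 ± 8.33 CPM in BNC and 76.9 ± 21.5 CPM in NC lines (SD, n = 3; log2 fold change 0.99 ± 0.22 SE, edgeR adjusted p = 0.037). Ctcf was at 135 to 163 CPM in BNC and 71.6 to 117 CPM in NC lines.

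The order of the members by level also differed between groups. Here levels are CPM per kilobase of exon (RPKM), scaled over all 15 libraries, and medians are given. In BNC lines Grb10 (39.5) and Igf2r (31.01) were highest, followed by Peg10 (13.6), H19 (8.16), Plagl1 (7.68), Peg3 (2.96), Igf2 (2.13), Meg3 (0.252), Mest (0.198), and Dlk1 (0.0971). The ranges of Peg10 (12.9 to 22.6) and Igf2r (14.2 to 31.5) overlapped, as did those of H19 and Plagl1, Peg3 and Igf2, and Meg3 and Mest. These medians lie in the close pair JB81 and JB91 for most members. In JB97, Mest was at 9.24 RPKM, above H19 (2.46), Plagl1 (0.932), and Peg3 (1.05), and Peg10 was above Igf2r. In NC lines Peg3 was highest (14.9) and Igf2r next (6.82), with overlapping ranges of 8.12 to 15.2 and 6.81 to 11.7. The other members had medians of at most 0.753 RPKM in NC lines, but in JB87 Grb10 was highest with 18.6 RPKM, above Igf2r (11.7), Peg3 (8.12), and Peg10 (7.39). In the tumors H19 was far above the others, with a median of 565 RPKM. Mest (13.7), Grb10 (13.3), Igf2r (11.6), and Igf2 (5.97) followed with overlapping ranges, and Dlk1 was lowest (0.103).

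The tumors held other cells beside tumor cells. On the scale of all 15 libraries, the leukocyte markers summed to 340 to 1255 CPM in tumors against at most 5.99 CPM in lines, and the endothelial markers to 70.7 to 560 CPM against at most 57.6 CPM. The erythroid markers, Hbb-bs and Hba-a1, summed to 2.27 to 1609 CPM in tumors and at most 0.0770 CPM in lines, the fibroblast markers to 4784 to 25056 CPM against 1534 to 6399 CPM, and the adipocyte markers to 0 to 689 CPM against at most 0.316 CPM. The 5 muscle markers summed to 161 CPM in the lowest tumor (B14), 2468 CPM in the median (B27), and 42145 CPM in the highest (B1), and to at most 4.39 CPM in lines. Fewer cells of a type and less RNA per cell cannot be told apart in such bulk samples. In the library B1, Gm42418 and Lars2, to which ribosomal RNA reads can map, held 24.7% and 13.8% of counts, against at most 7.18% and 3.61% elsewhere. TMM left B1 an effective size of less than its total count, so its scaled values are higher than those by library size. Tumors and lines also carry different number prefixes, so prefix and kind of sample cannot be told apart, and the values below have no test.

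H19 was higher in each of the 9 tumors than in any line. Its level was 110 CPM in the lowest tumor (B28), 1390 CPM in the median (B45), and 10325 CPM in the highest (B1), against 0 to 21.3 CPM in lines on the same scale. By library size only, B1 had 4355 CPM and remained the highest. The 4 tumors with the highest muscle marker sums, B1, B19, B45, and B13, had H19 at 10325, 4608, 1390, and 3636 CPM, and B14, B28, and 22, with the lowest sums, had 132, 110, and 161 CPM. B2, with a muscle sum of 820 CPM, had H19 at 1241 CPM. H19 is known to be expressed in muscle, and the part of muscle in its level was not tested. The lowest tumor, B28, was at 5.16 times the highest line.

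**Figure D4:**
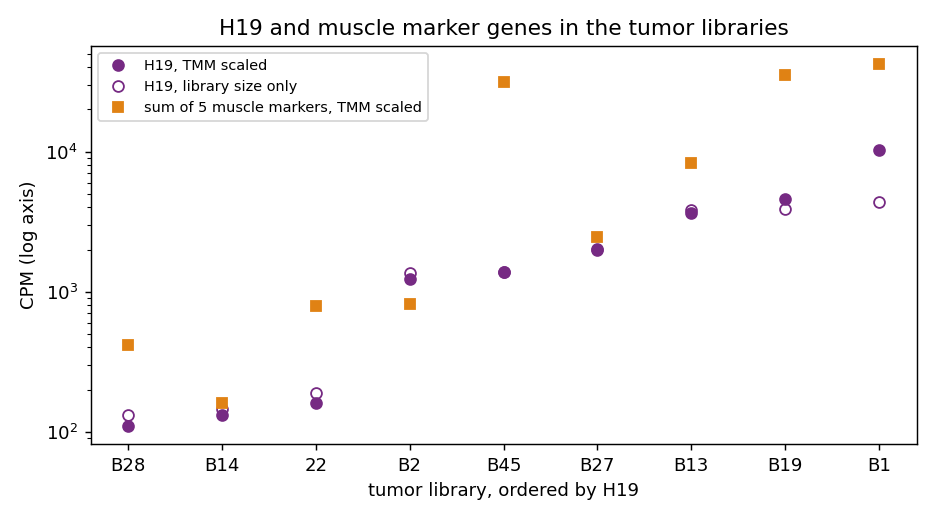
H19 (purple; filled, TMM scaled; open, by library size only) and the sum of the muscle markers Ckm, Acta1, Myh6, Myh2, and Tnnt3 (orange squares) in each tumor library, in CPM on a log axis, with tumors ordered by H19. B28, B14, and 22 are low and B13, B19, and B1 high in both, while B45 has a muscle sum of 31498 CPM with H19 at 1390 CPM.

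Meg3 was the other member higher in each tumor than in any line. It was at 25.8 CPM in the lowest tumor (B19), 69.4 CPM in the median (B45), and 465 CPM in the highest (B13), against 0 to 4.85 CPM in lines. The lowest tumor was 5.32 times the highest line. Every tumor above every line was found for 2 of 10 members, against 16.8% of the 14383 genes that passed the filter over all libraries, and every tumor below every line for 0 of 10, against 9.59%. Rian and Mirg of the Meg3 domain were also above all lines in each tumor, Rian at 34.6 to 366 CPM and Mirg at 1.45 to 16.3 CPM, and both were highest in B13, as Meg3 was. Dio3 did not stand apart, with 1.68 to 15.6 CPM in tumors. Dlk1 was at 0.0459 CPM in the lowest tumor (B27), 0.581 CPM in the median (B1), and 23.4 CPM in the highest (B28). B13, highest in Meg3, had Dlk1 at 0.568 CPM.

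Igf2 ranged from 4.08 CPM (B28) over a median of 34.2 CPM (B45) to 414 CPM (B1), and 7 of 9 tumors were above all lines, whose highest value was 12.2 CPM. B14 was second with 371 CPM. Per exon length, H19 over Igf2 was 0.830 in B14 and 28.6 to 254 in the other 8 tumors, so B14 was the tumor with more Igf2 than H19. Igf2r spanned 57.1 CPM (B2) to 213 CPM (B28) with a median of 108 CPM, within the range of the lines except for B2, and Grb10 spanned 21.1 CPM (B28) to 218 CPM (B13) with a median of 121 CPM. No tumor reached the Grb10 level of a BNC line, where the lowest was 333 CPM. Peg10 was at 3.23 to 29.3 CPM in tumors, below the 86.0 CPM of the lowest BNC line in all 9, with a median of 7.85 CPM. Plagl1 was at 2.04 to 25.8 CPM with a median of 12.4 CPM, and all tumors were above the highest NC line (1.001 CPM). Against all 6 lines, the tumor levels of Grb10, Peg10, and Plagl1 overlapped. For tumors against 1 group of lines, the share over all genes was not counted. Peg3 had a median of 32.2 CPM and 7.46 to 213 CPM, with B45 highest and B14 lowest. Mest had a median of 54.0 CPM and 5.03 to 304 CPM, with 6 of 9 tumors above the highest line (36.4 CPM, JB97).

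**Figure D5:**
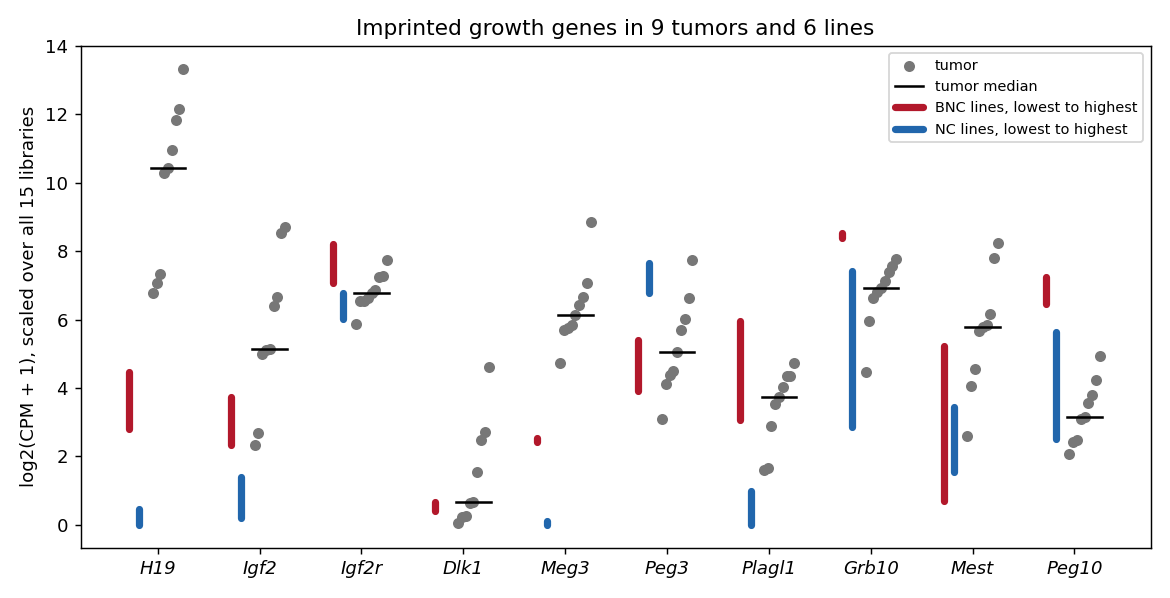
Level of each member in the 9 tumors (gray points, with the median as a line) beside the lowest to highest values of BNC lines (red) and NC lines (blue), as log2(CPM + 1) scaled over all 15 libraries. H19 and Meg3 are above all lines in each tumor. Grb10 and Peg10 are below the BNC lines in each tumor but overlap the range of all lines.

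Among the 9 tumors, B28 was lowest for H19, Igf2, Plagl1, Grb10, and Mest and highest for Igf2r, Dlk1, and Peg10. Of genes outside the members, picked after their values were seen, B28 was lowest for Igf1, Igfbp3, and Upk3b and highest for Notch2 and Tet2. Cd81 and Insr had other tumors at both ends. The share of all genes with B28 at an end was not counted, so whether the members stand out in this is not known. In the other lists, Igfbp4, a binding protein of IGFs, was at 377 to 1317 CPM in tumors and at most 158 CPM in lines, and Igf1r at 3.49 to 57.8 CPM in tumors and at least 80.5 CPM in lines.

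The gene whose log2(CPM + 1) was most like that of each member over the 15 libraries is a description, since tumors and lines differ in most genes. It was Mustn1, named for muscle, for H19 (Pearson's r = 0.965), Atp6v1g2 for Meg3 (0.965), Hivep3 for Grb10 (0.951), Mylk, the smooth muscle myosin kinase, for Plagl1 (0.942), and Bfar for Igf2 (0.939). It was Glyr1 for Peg10 (0.938), B130024G19Rik for Dlk1 (0.932), Lsr for Mest (0.930), 4933431E20Rik for Peg3 (0.914), and Gse1 for Igf2r (0.910).

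DNA copy number at the member genes was measured in 14 tumors. The median log2 value of the 20-kb bins within 100000 bases of each gene was between -0.110 (Peg3, B28) and 0.185 (Igf2r, B25) over all members and tumors. These windows held from 9 bins (Mest) to 16 bins (Grb10). The central 95% of autosomal windows, all of 11 bins, ran from -0.123 to 0.119, so sizes match only roughly. Igf2r in B25 and in B31 (0.140) lay outside that range, and the median of all bins of chromosome 17 was 0.166 in B25 and 0.111 in B31. All other values of the members lay within it. Codes of 5 tumors (B2, B13, B14, B19, and B28) appear in both tables. In these, H19 was between -0.070 and 0.041, and Igf2 in B14 was 0.066, Meg3 in B13 -0.015, and Dlk1 in B28 -0.072, all within the central 95% of windows. Copy number of the lines was not analysed here.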

How the data were processed

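The authors deposited the RNA data as raw counts of reads on each Ensembl gene, not normalized. Poly-A–enriched RNA had been sequenced as single-end reads, mapped to mm10 with TopHat2 2.0.12, and counted with HTSeq. The strand setting is not stated, so overlapping and antisense genes are uncertain. The authors deposited DNA data as log2 values per 20-kb bin, and the filler for empty bins was dropped.

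BNC and NC lines were assigned by matching column heads to the line names the study gives for each group. The 9 RNA columns of the third number prefix were taken as the 9 tumors by elimination, and the 14 DNA columns as tumors, without genotype. Chromatin profiles were not used here. Members and gene lists were chosen with earlier results of these data known. The genes named are the 10 members, the other genes of their domains, the 2 genes with the smallest p in each of the lists of other imprinted genes, IGF signaling, Notch signaling, and imprint maintenance, the targeted genes, and the most similar gene of each member. Cell type markers, Ctcf, and Igfbp4 were named outside this rule, after their values were seen. So were Ndn, Pappa2, and Igf1r, and Igf1, Igfbp3, Notch2, Tet2, Cd81, and Insr, which are named beside the tumor B28.

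The main test was that of edgeR 4.0.16 in R 4.3.3 (quasi-likelihood test, TMM, filterByExpr with minimum count 10, no covariates), which was tested on simulated data. Standard errors were taken from the log2 fold change and its F statistic. The alternatives were DESeq2 1.42.0, scaling by library size, other filters, a looser threshold, the replicate block, the run, close pairs summed, and each line left out. CPM in lines is TMM scaled over 6 lines, and in tumors over all 15 libraries. Positions come from GENCODE M21 on GRCm38, and sequences from GRCm38 and RefSeq tables, where 8 of 10 members had a promoter. Symbols were found for 98.5% of identifiers. Figures were drawn with matplotlib 3.10.9.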

Additional observations from a re-analysis of the deposited data

Results flagged for a closer look

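Among the 9 tumors, 4 of the 10 members had 1 tumor far from the others, by the gap to the nearest tumor over the whole range (critical value 0.493). Chance would flag about 1 in 20 such groups if values were normally distributed. The CPM values were skewed toward high levels, so this rate need not hold and the flags are a description. H19 reached 10325 CPM in B1 (gap over range 0.560), the library with the highest muscle marker sum and the largest share of Gm42418. By library size alone B1 had 4355 CPM and B19 3883 CPM, and the gap over range fell to 0.112, below the critical value. The part of muscle or of Gm42418 in the value was not tested. Dlk1 reached 23.4 CPM in B28 (0.764), Meg3 465 CPM in B13 (0.756), and Peg3 213 CPM in B45 (0.562), and these stayed above the critical value by library size (0.767, 0.738, and 0.705). By library size alone Igf2 in B14 (0.579) and Peg10 in B28 (0.511) also passed it.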

How the results depend on the processing

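Across the alternatives, the 1 member (Meg3) and 136 genes called by edgeR became 6 members and 2023 genes with DESeq2, 6 and 1436 at an adjusted p under 0.05, and 0 and 83 with at least 10 counts in every line, where Meg3, H19, Igf2, and Plagl1 are no longer tested. They became 0 and 1 with the run as a covariate and 0 and 0 with the close pairs summed, and DESeq2 with the close pairs summed, added after seeing the data, called 4 members and 582 genes. With library size alone (1 and 137) and without the filter (1 and 169) Meg3 was called as before; library size alone moves the median of all genes to -0.14 on the log2 scale. With the replicate block the counts were 0 and 0 (7 members and 2146 genes had an unadjusted p under 0.05). The block used the line numbers in the study's gene list, which gives JB91, JB97, and JB87 the same number. Whether these numbers pair the samples cannot be told from the values. After the group means were taken off, same-numbered lines had correlations of 0.124 (JB81 with JB84), -0.084 (JB91 with JB87), and 0.098 (JB97 with JB87). Not every line correlated best with its own number. Since each group holds a close pair, these deviations mostly set that pair against the remaining line, so the correlations cannot decide about pairing. Leaving out each line gave from 0 to 4 members and from 0 to 2574 genes, with 2 and 984 without JB97, 4 and 2574 without JB87, 0 and 1 without JB81, and 0 and 0 without JB91, JB84, or JB93. For Mest the log2 fold change turned to -0.28 under the replicate block and -2.76 without JB97, and the other 8 tested members kept their direction in each alternative in which they were tested. Every tumor stood above every line for H19 and Meg3 under library size too, and leaving out a line or tumor cannot undo such a separation. Causes of these shifts were not tested, except where fewer genes or lines enter. Depth limits Dlk1, Meg3, H19, and Plagl1 in NC lines, where they had at most 13 reads in any line.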
